A study of Caenorhabditis elegans with 48 samples.

Results

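The genes described here are the sperm gene families of whole adult *Caenorhabditis elegans*: every gene named *msp*, *nspd*, *ssp* or *spe* with a number, plus the sperm phosphatase genes *gsp-3* and *gsp-4*. The naming rule found 81 of the 19885 genes in the tables. They were 31 *msp* genes, 10 *nspd* genes, 11 *ssp* genes, 27 *spe* genes and both *gsp* genes. The study asked how depletion of the nuclear receptor NHR-23 affects daily changes in transcripts. All worms were of the strain JDW259, in which an *eft-3* promoter drives the plant F-box protein TIR1 and the *nhr-23* gene carries an auxin-inducible degron. K-NAA worms were moved to plates with 0.4 mM of this auxin analog 12 h before sampling began, which leads to breakdown of the tagged protein, and mock worms were moved to plates without it. Both received FUdR, an inhibitor of DNA synthesis that prevents progeny, from the L4 stage. The worms had been entrained by cycles of warm and cold, and the move to K-NAA came after the final molt. They were sampled as adults at the constant cold temperature. Polyadenylated RNA was sequenced at 12 circadian times, CT1 to CT23, from 2 culture plates per time point and condition. This gave 24 K-NAA and 24 mock libraries.

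Hermaphrodites of *C. elegans* make sperm during late larval life, store them in the spermatheca and then switch to making oocytes for the rest of their lives, while males make sperm throughout adulthood. Transcription stops before a sperm is complete, so sperm genes are read in developing spermatocytes. Major sperm protein forms the fibres that let the crawling sperm move, since these sperm have no flagellum and no actin-based motility. The protein also signals to oocytes. The *spe* genes are named for mutants with defective sperm, and their products act at many steps from the spermatocyte to the fertilized egg.

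The *msp* genes are close copies of each other. In the Ensembl annotation of WBcel235, 28 of the 31 *msp* gene models spanned 384 bases each, and the others spanned 234 bases (*msp-58* and *msp-74*) and 360 bases (*msp-32*). The 31 genes lay in 3 windows, with 13 on chromosome II from 4785898 to 5810330, 9 on chromosome IV from 5055631 to 5316906 and 9 on chromosome IV from 9689015 to 10143740. These windows also held 8 of the 21 *nspd* and *ssp* genes (38.1%), against 2.44% of the 19523 genes of the tables with a position. By comparison, 1 of the 29 *spe* and *gsp* genes lay there. The share-out of reads among *msp* copies is uncertain, because near-identical sequences cannot be told apart by short reads, whereas the sum over the copies does not depend on it. All levels below are in TPM, a share of all transcripts scaled by transcript length.

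*nhr-23* mRNA averaged 31.6 ± 1.86 TPM in K-NAA and 34.0 ± 3.16 TPM in mock (SD, n = 24 libraries each). The degron acts on the protein, so its mRNA is no check of the depletion or of the labels. The paper proposes that *nhr-23* mRNA lacked an adult rhythm probably because the germline expresses it highly for spermatogenesis. The values here hold no measure of how far the protein was depleted in the germline. Oocyte and eggshell transcripts (15 genes) summed to 12126–13347 TPM in K-NAA and 12170–14334 TPM in mock, so oocyte transcripts were abundant in every library. The 13 male markers summed to 1.54–3.97 TPM in K-NAA and 1.495–4.59 TPM in mock. Of them, 3 were tested: *try-5*, a seminal fluid protease gene, averaged 0.944 TPM, *mab-3*, a regulator of male traits, 0.518 TPM and *cwp-4* 0.383 TPM. The other 10 averaged less than 0.25 TPM; *lov-1* and *pkd-2*, the polycystin genes of male sensory neurons, averaged 0.00519 and 0.0290 TPM, and *cwp-3* was listed at 0 in all 48 libraries. Values of 0 are given as listed. Of 68 ribosomal protein genes 2 were at 0 in at least 1 library, both with means under 1 TPM, and 9 genes with a mean over 20 TPM also had such a value. Of the 81 sperm genes, 58 averaged 0.25 TPM or more across the 48 libraries and were tested, among 13813 genes in all.

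Major sperm protein transcripts varied widely among culture plates, in K-NAA and in mock alike. The spread between times was not measured. The summed TPM of the 31 *msp* genes ran from 4.25 to 315.9 with a median of 75.7 in the 24 K-NAA libraries, and from 3.74 to 365.5 with a median of 54.7 in the 24 mock libraries. The ranges of both conditions overlapped almost wholly. The sums fell into 2 ranges, with 18 libraries between 3.74 and 11.8 TPM and 30 libraries between 45.4 and 365.5 TPM. The empty stretch between them was 3.86-fold, and no other step between neighbouring libraries exceeded 1.59-fold. Of the low libraries, 8 were K-NAA and 10 were mock. In the low libraries 18–28 of the 31 *msp* genes were listed at 0, and in the others 3–8. In bulk RNA, fewer sperm-forming cells and less RNA per such cell cannot be told apart.

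**Figure D1:**
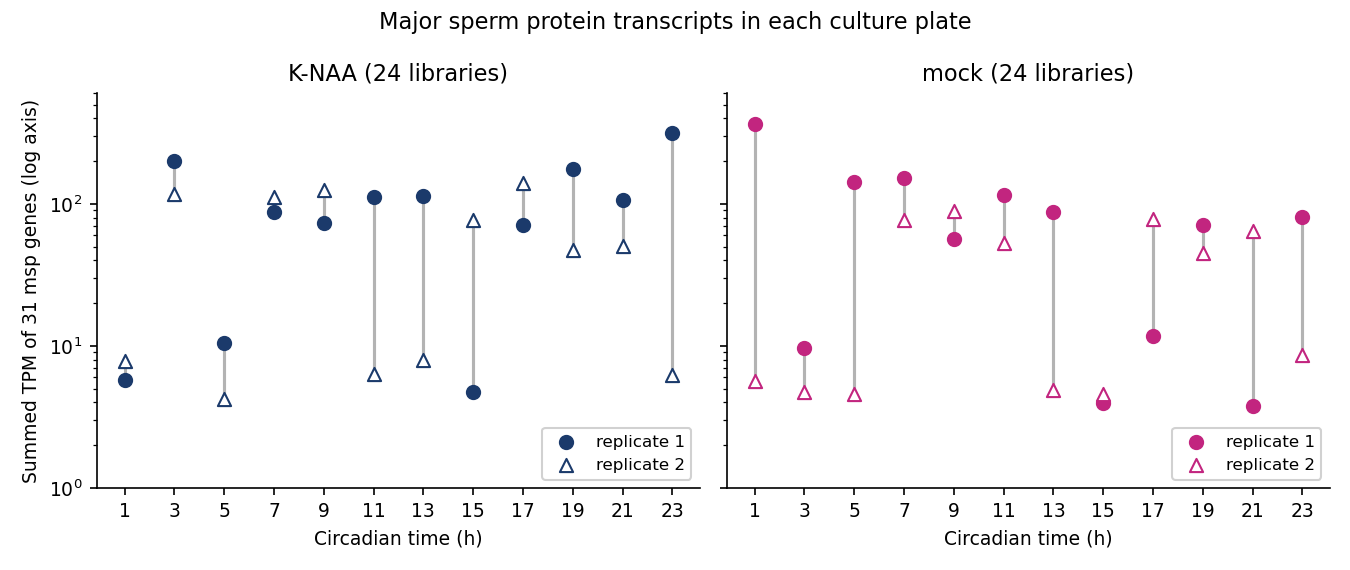
Summed TPM of the 31 *msp* genes (log axis) in each library against circadian time (h), K-NAA on the left and mock on the right. Filled circles are replicate 1, open triangles replicate 2, and the grey line joins the 2 plates of a time point; 18 libraries lie at or below 11.8 TPM, 30 at or above 45.4 TPM, and 10 of the 24 pairs straddle the gap.

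Plates of the same time point and condition often stood on opposite sides of the gap. Of the 24 pairs of plates, 10 were split (4 K-NAA and 6 mock), 10 had both plates high (6 K-NAA and 4 mock) and 4 had both plates low (2 K-NAA and 2 mock). The fold between sister plates was 6.62 to 64.5 in the split pairs and 1.15 to 3.76 in the others. By time point, low libraries were 3 of 4 at CT1, CT5 and CT15, and 2 of 4 at CT3, CT13 and CT23. There was 1 of 4 at CT11, CT17 and CT21, and none of 4 at CT7, CT9 and CT19. This uneven placement over the day was not tested. By replicate, the low libraries were 3 of replicate 1 and 5 of replicate 2 in K-NAA, and 4 of replicate 1 and 6 of replicate 2 in mock. These ranges were seen in the values themselves, so no test was made between libraries on either side of the gap.

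The widest pairs were at CT23 in K-NAA and at CT1 in mock. At CT23 in K-NAA the *msp* sum was 315.9 TPM in replicate 1 and 6.22 TPM in replicate 2. At CT1 in mock it was 365.5 TPM in replicate 1 and 5.67 TPM in replicate 2. In both pairs 28 *msp* genes were above 0 in the high plate and 6 in the low plate. The sum over the 27 *spe* genes was 110.3 and 114.2 TPM in these K-NAA plates and 109.3 and 110.8 TPM in these mock plates, so this sum did not share the difference. It is carried mostly by *spe-39*, *spe-48* and *spe-44*, and says little of the *spe* genes of low level. The male markers summed to 3.41 and 3.44 TPM in the K-NAA plates and 2.44 and 2.21 TPM in the mock plates, and their part in the *msp* values was not tested. Over all 24 pairs the male sum went with the *msp* sum in 16, and in 5 of the 10 split pairs, while *mab-3* by itself did so in 20 and in 7 of the 10.

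Nearly every *msp* gene tested went the same way as the family sum in the split pairs. The *msp* gene with the highest mean was *msp-31* (chromosome II, 4916179 to 4916562, minus strand), with a lowest, median and highest library of 0.984, 6.002 and 14.6 TPM in K-NAA and 1.96, 4.16 and 16.6 TPM in mock. It was the only *msp* gene above 0 in all 48 libraries. *msp-59* (chromosome IV, 5312728 to 5313111, minus strand) ran from 0 through a median of 6.59 to 16.5 TPM in K-NAA, and from 0 through 3.46 to 21.04 TPM in mock. *msp-57* (chromosome IV, 5062578 to 5062961, plus strand) ran from 0 through 4.13 to 14.6 TPM in K-NAA, and from 0 through 2.84 to 24.2 TPM in mock. In the CT1 mock pair *msp-57* was 24.2 TPM in replicate 1 and listed at 0 in replicate 2, and in the CT23 K-NAA pair it was 14.6 TPM and 0. Across the 24 pairs *msp-57* was higher in the same plate as the whole family in 23. The other 25 *msp* genes tested had means of 0.251 to 4.16 TPM, and 27 of the 28 went the same way as the family sum in at least 9 of the 10 split pairs; the exception was *msp-63*, listed at 0 in 35 libraries. A gene counted in the sum shares its values with it, so this agreement describes the family and is no test. The *msp* genes under the filter were *msp-32*, listed at 0 in all 48 libraries, and *msp-58* and *msp-74*, at 0 in 47 libraries each; they are also the only *msp* genes with a span other than 384 bases.

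**Figure D2:**
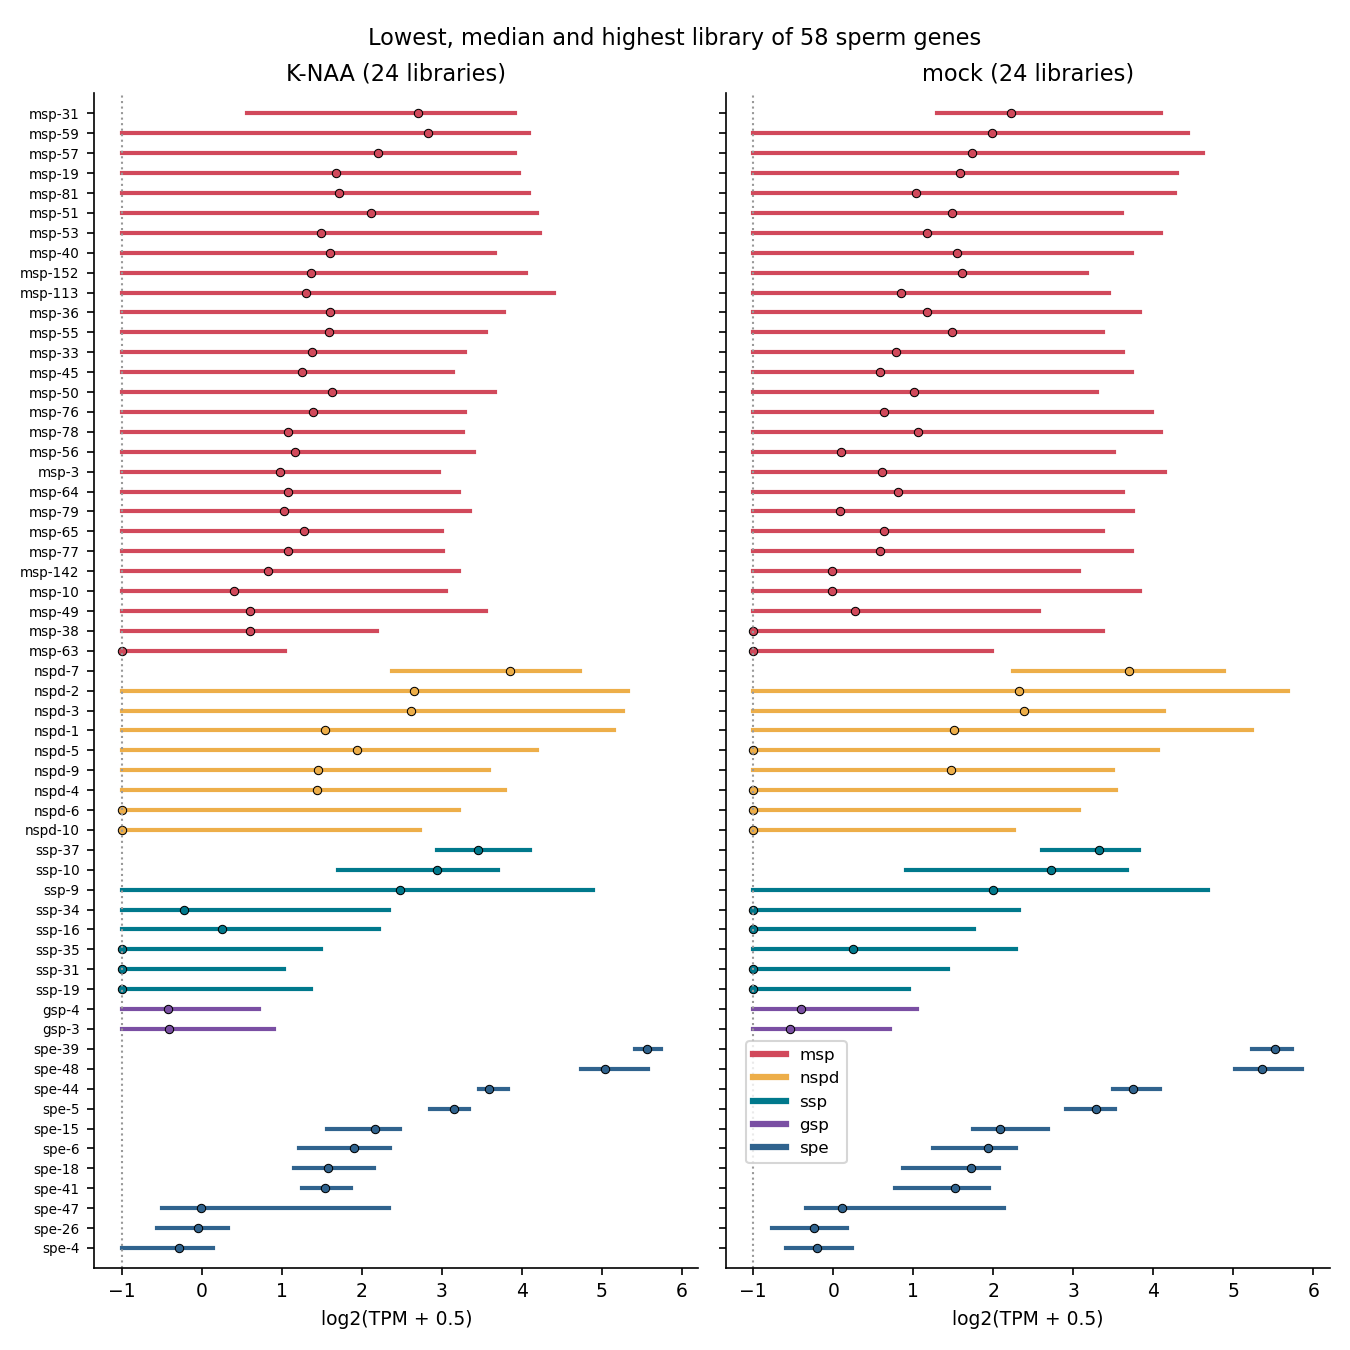
Lowest, median (dot) and highest library of the 58 sperm genes tested, as log2(TPM + 0.5), in K-NAA on the left and mock on the right, coloured by family and ordered by mean TPM within each. The dotted line marks a listed value of 0; the *msp* genes other than *msp-31* reach it in both conditions, while most *spe* genes keep short ranges.

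The *nspd* genes, a nematode-specific family of small peptides with transcripts enriched in sperm-forming tissue, moved with the *msp* genes as a sum and less evenly gene by gene. Their sum ran from 7.06 through a median of 48.5 to 173.4 TPM in K-NAA, and from 4.81 through 36.8 to 168.3 TPM in mock. It was higher in the same plate as the *msp* sum in 21 of the 24 pairs and in all 10 split pairs. *nspd-2* ran from 0 through 5.81 to 39.6 TPM in K-NAA and from 0 through 4.48 to 50.9 TPM in mock. *nspd-3* ran from 0 through 5.62 to 37.95 TPM in K-NAA and from 0 through 4.72 to 17.1 TPM in mock. Both were listed at 0 in the low plates of the CT23 K-NAA and CT1 mock pairs. *nspd-7*, the *nspd* gene with the highest mean, was never at 0 and had a narrower range, 4.71 through 14.0 to 26.1 TPM in K-NAA and 4.26 through 12.5 to 29.1 TPM in mock. Of the 9 *nspd* genes tested, 4 went with the *msp* sum in at least 9 of the 10 split pairs, and the others in 4 to 7. *nspd-8*, the only *nspd* gene under the filter, was listed at 0 in 47 libraries.

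The *ssp* genes, several of which encode small proteins with a major sperm protein domain, were mixed. The *ssp* sum was 12.0 to 61.9 TPM (median 24.8) in K-NAA and 8.29 to 62.8 TPM (median 21.9) in mock, and went with the *msp* sum in 21 of 24 pairs. *ssp-9* behaved like an *msp* gene, at 0 through 5.08 to 29.1 TPM in K-NAA and 0 through 3.50 to 25.1 TPM in mock, and went the same way as the *msp* sum in 22 of 24 pairs. *ssp-10* was above 0 in every library, at 2.77 through 7.15 to 12.5 TPM in K-NAA and 1.38 through 6.09 to 12.2 TPM in mock. *ssp-37* was steadier still, at 7.19 through 10.5 to 16.7 TPM in K-NAA and 5.61 through 9.48 to 13.6 TPM in mock. It went with the *msp* sum in 12 of 24 pairs. The other 5 *ssp* genes tested (*ssp-16*, *ssp-19*, *ssp-31*, *ssp-34* and *ssp-35*) were listed at 0 in 24 to 34 libraries, and 3 more (*ssp-32*, *ssp-33* and *ssp-36*) were under the filter.

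*gsp-3* and *gsp-4* encode the sperm forms of protein phosphatase 1, which act in sperm formation and motility. *gsp-4* ran from 0 through 0.246 to 1.14 TPM in K-NAA and from 0 through 0.258 to 1.56 TPM in mock. *gsp-3* ran from 0 through 0.256 to 1.37 TPM in K-NAA and from 0 through 0.189 to 1.14 TPM in mock. The levels were low, yet the sum of both was higher in the same plate as the *msp* sum in 23 of the 24 pairs. Reads may be split between them, as they are close paralogs.

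**Figure D3:**
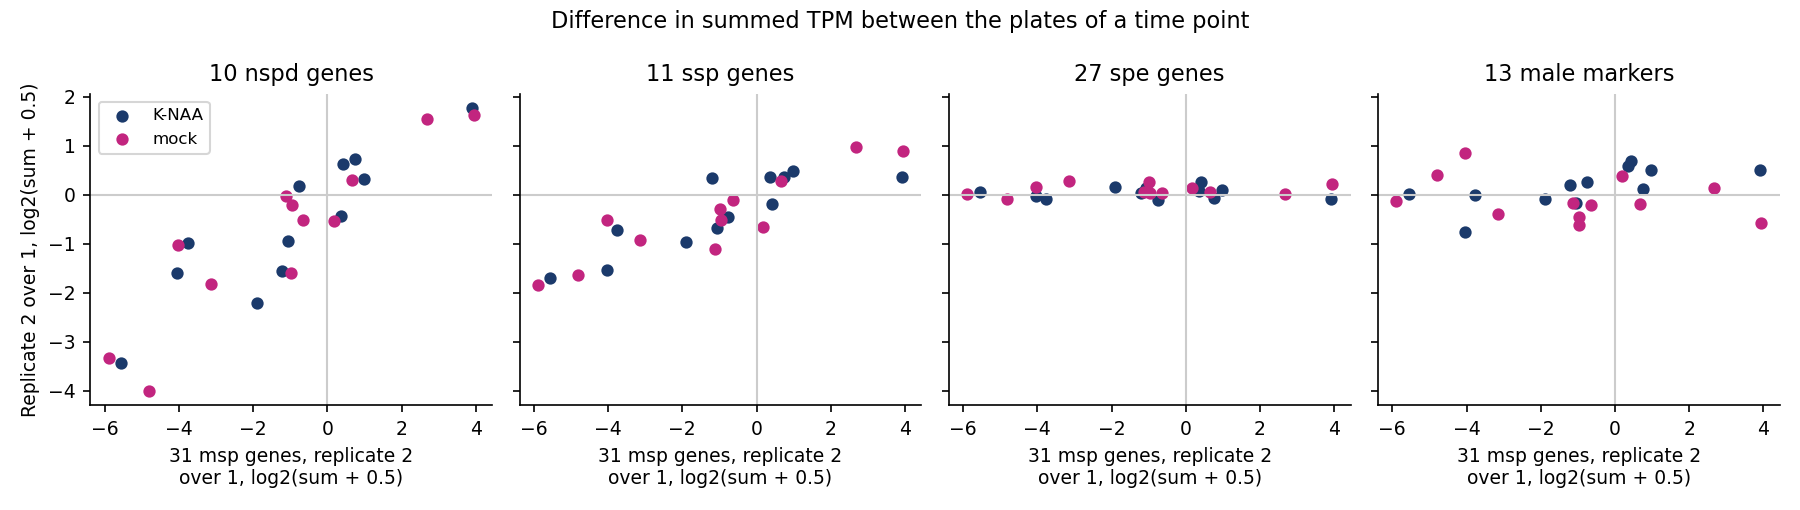
Difference between the 2 plates of each time point (replicate 2 over replicate 1, log2 of the summed TPM + 0.5) for the *nspd*, *ssp* and *spe* genes and 13 male markers, each against the same difference for the *msp* genes; 12 points are K-NAA and 12 are mock. The *nspd* and *ssp* sums share the sign of the *msp* sum in 21 of 24 pairs each, the *spe* sum in 11 and the male markers in 16.

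The spread between sister plates put numbers on this. The SD between plates of a time point, on the log2(TPM + 0.5) scale, had a median of 1.40 over the 58 sperm genes tested and of 0.19 over all 13813 genes tested. By family the medians were 1.61 for *nspd*, 1.52 for *msp*, 0.82 for *ssp*, 0.53 for *gsp* and 0.21 for *spe* genes. Of the 58 genes, 47 lay above the 90th percentile of all genes, 0.43; the 11 below it were *ssp-37* and 10 of the 11 *spe* genes tested. Over the 24 plate differences, the median Pearson correlation between any 2 *msp* genes was 0.84, against 0.04 between any 2 *spe* genes. These correlations are descriptions over plates that each contribute all genes, and read sharing between copies also enters that of the *msp* genes. Genes of low TPM have wider spreads in general.

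**Figure D4:**
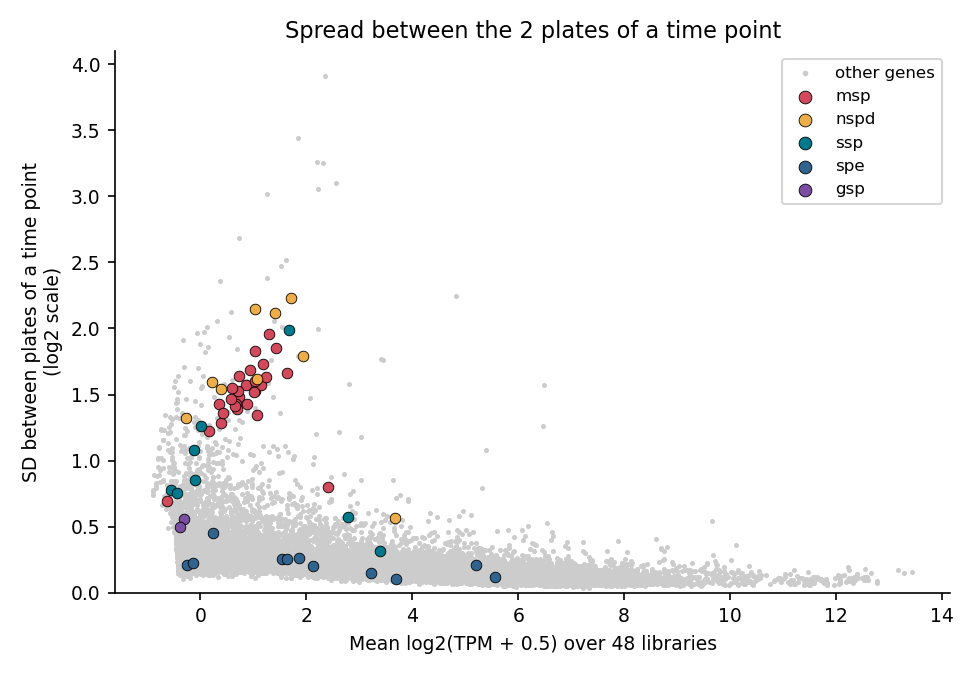
SD between the 2 plates of a time point (log2 scale) against mean log2(TPM + 0.5) over 48 libraries for 13813 genes, with the 58 sperm genes coloured by family. The *msp*, *nspd* and several *ssp* genes sit high above most genes of similar mean, with family medians of 1.52, 1.61 and 0.82, whereas the *spe* genes (median 0.21) lie among the other genes.

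Outside the naming rule, the 10 genes whose plate differences were most like those of the summed sperm genes (mean of at least 1 TPM, 48 libraries, condition and time point means removed) had Pearson correlations of 0.83 to 0.92. They were *msrp-2* (0.92), *Y59E9AR.1* (0.91), *K12H6.4* (0.90), *C05B5.11* (0.90), *msd-1*, *K12H6.9* and *spch-1* (0.87 each), *Y74C10AR.2* (0.86), *msd-4* (0.85) and *F26D10.13* (0.83). The named ones among them include *spch-1*, which encodes a sperm chromatin protein, and *msd-1* and *msd-4*, which encode proteins with a major sperm protein domain. *msd-1* was 8.81 TPM in replicate 1 and 0 in replicate 2 of the CT23 K-NAA pair, and 11.2 TPM and 0 in the CT1 mock pair. Each of the 10 was listed at 0 in at least 1 library and had its highest value between 4.58 and 20.6 TPM.

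The *spe* genes covered a continuous range of levels. Of the 27, 11 passed the filter and 16 fell under it, with means of 0.0141 to 0.212 TPM and no library above 0.926 TPM. Those under the filter included genes of sperm activation, namely *spe-8*, a tyrosine kinase gene, with *spe-12*, *spe-19*, *spe-27*, *spe-29* and *spe-43* of the same group, and *spe-46*. Also under it were genes for sperm surface proteins needed at fertilization (*spe-9*, *spe-38*, *spe-42* and *spe-49*), the paternal factor *spe-11* needed by the embryo, the palmitoyltransferase gene *spe-10*, and *spe-54*. *spe-27* and *spe-29* were at 0 in 46 and 47 libraries, whereas *spe-9* was above 0 in 45, with a highest value of 0.399 TPM. Of these low genes, *spe-46* went with the *msp* sum in 20 of 24 pairs and 8 of the 10 split pairs. *spe-54* did so in 8 of the 10 split pairs, but in 12 of all 24, which is the median over all genes tested. The other low *spe* genes went with it in at most 6 of the 10 split pairs.

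The *spe* genes above the filter, *spe-47* aside, had SDs between plates of 0.11 to 0.26 on the log2 scale. The median over all genes tested was 0.19. For genes as low as *spe-4* the pseudocount of 0.5 keeps this SD small. *spe-39*, which encodes a vesicle traffic protein used in many cell types, averaged 47.7 ± 2.99 TPM in K-NAA and 45.6 ± 4.60 TPM in mock (SD, n = 24 each), and never fell below 37.1 TPM. *spe-15*, the myosin VI gene, was 2.46 through 3.99 to 5.05 TPM in K-NAA and 2.85 through 3.73 to 5.92 TPM in mock. *spe-6*, a casein kinase gene, had medians of 3.24 TPM in K-NAA and 3.33 TPM in mock. *spe-18*, whose product is needed to assemble major sperm protein fibres, had medians of 2.49 TPM in K-NAA and 2.80 TPM in mock, and was never at 0. *spe-41*, a sperm calcium channel gene, had medians of 2.42 TPM in K-NAA and 2.38 TPM in mock. *spe-4*, the sperm presenilin gene, did not exceed 0.676 TPM, with medians of 0.319 TPM in K-NAA and 0.372 TPM in mock. None of these 6 genes went with the *msp* sum in more than 16 of the 24 pairs.

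K-NAA and mock differed in the level of 4 sperm genes, all of them *spe* genes. With limma on log2(TPM + 0.5) and the time point as a factor, 3 of 58 (5.17%) were lower in K-NAA and 1 of 58 (1.72%) was higher at an adjusted p under 0.05. Over all 13813 genes the shares were 19.8% lower and 9.48% higher, above those of the 58 sperm genes. Calls were harder to reach in the *msp* genes, whose median SE was 0.41 against 0.057 over all genes. Of the 11 *spe* genes tested, 3 were lower and 1 was higher, which does not set them apart from all genes. The difference in shares was not tested. Genes of other tissues were also called lower in K-NAA, namely 8 of 15 oocyte and eggshell genes, 4 of 12 germline genes and 3 of 8 somatic gonad genes, with 0, 2 and 1 called higher; their part in the *spe* values was not tested.

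*spe-48* (chromosome I, 1950594 to 1958527, minus strand) was 26.2 through 32.3 to 47.4 TPM in K-NAA and 31.9 through 40.4 to 57.7 TPM in mock. The ranges overlapped, with K-NAA lower at 11 of the 12 time points. Its log2 fold change was -0.31 (SE 0.060, adjusted p = 8.32e-05 from limma). *spe-44*, which encodes a transcription factor that switches on sperm genes in the germline, was 10.6 through 11.5 to 13.7 TPM in K-NAA and 10.8 through 12.9 to 16.5 TPM in mock. It was lower in K-NAA at 11 of 12 time points, and its fitted log2 fold change was -0.17 (SE 0.035, adjusted p = 0.000264 from limma). *spe-5*, which encodes a subunit of the vacuolar proton pump, was 6.71 through 8.40 to 9.61 TPM in K-NAA and 7.05 through 9.28 to 11.02 TPM in mock. It too was lower at 11 of 12 time points, at -0.16 (SE 0.043, adjusted p = 0.00477 from limma). The *spe-5* call was lost without replicate 1 (adjusted p = 0.121) or replicate 2 (0.0609), over a range of 0.00323 to 0.121 in its alternatives, all by limma.

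*spe-26*, which encodes a kelch protein of spermatocytes, was the single sperm gene higher in K-NAA. It was 0.179 through 0.469 to 0.757 TPM in K-NAA and 0.0898 through 0.348 to 0.629 TPM in mock, higher at 11 of 12 time points. The log2 fold change of 0.17 (SE 0.065, adjusted p = 0.0425 from limma) lay close to the threshold. It was lost in 33 of the 62 fits that left out a library, a time point or a replicate, and without the 2 libraries of highest *msp* sum (adjusted p = 0.0549 from limma, over a range of 0.0210 to 0.237 in its alternatives).

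**Figure D5:**
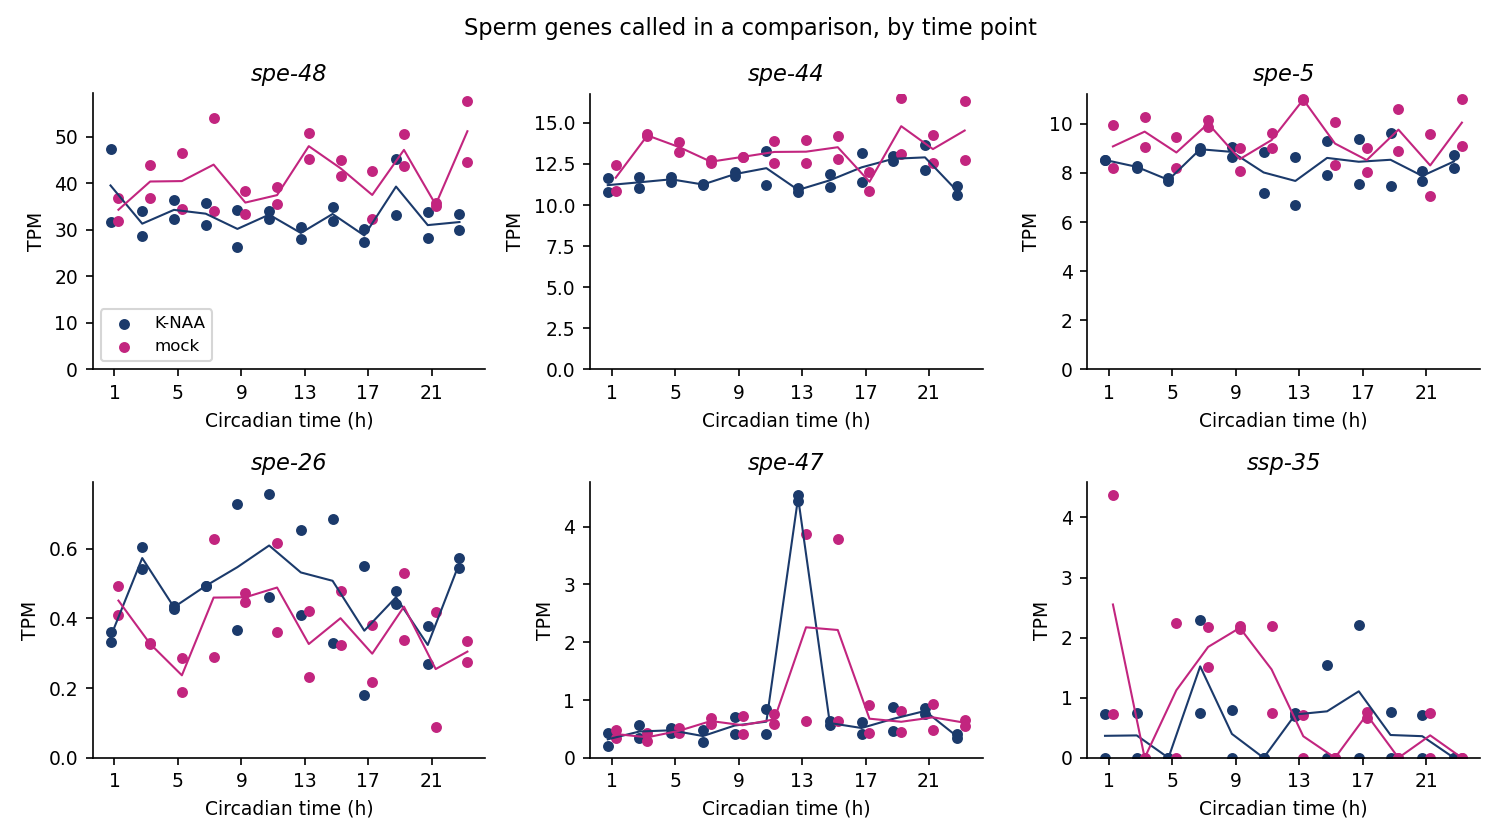
TPM of 6 sperm genes against circadian time (h) in K-NAA and mock; each point is a library and the lines join the means of the 2 plates of a time point. *spe-48*, *spe-44* and *spe-5* lie lower in K-NAA at 11 of 12 time points and *spe-26* higher at 11, *spe-47* has 4 libraries between 3.79 and 4.56 TPM at CT13 and CT15, and *ssp-35* returns to 0 in 24 libraries.

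No *msp*, *nspd*, *ssp* or *gsp* gene passed the test for level. Their estimates were positive for all 28 *msp* genes (median log2 fold change 0.43, from 0.15 to 0.71), but with a median SE of 0.41. The copies move together between plates, so their shared sign is not repeated evidence. *msp-59* had a log2 fold change of 0.71 (SE 0.46, adjusted p = 0.270 from limma) and *msp-57* of 0.44 (SE 0.50, adjusted p = 0.552 from limma). The median over the 8 tested *ssp* genes was 0.17 and that over the 9 *nspd* genes 0.36. Over all 58 genes the median was 0.23, against -0.02 over all genes tested, and the median SE was 0.39 against 0.057. With this spread between plates, a difference in *msp* level of the size estimated was not detectable.

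A 24 h rhythm was called in few sperm genes. In K-NAA, limma called 0 of 58 at an adjusted p under 0.30 (3 at an unadjusted p under 0.05), against 0.746% of all genes. The smallest p was that of *ssp-37*, whose fitted range was 0.39 (log2) at an adjusted p of 0.517 from limma. In mock, 2 of 58 (3.45%) were called at 0.30, against 11.7% of all genes, and 0 of 58 at 0.05, against 1.12% (3 at an unadjusted p under 0.05). The median fitted range of the 58 genes was 0.41 in K-NAA and 0.81 in mock on the log2 scale, against 0.13 and 0.16 over all genes. These wide ranges stood beside the plate spread given above, so a missing call is no sign of a constant level.

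The genes called in mock were *spe-47* and *ssp-35*. *spe-47* encodes a protein with a major sperm protein domain that acts in sperm activation. It lay between 0.206 and 0.923 TPM in 44 libraries and between 3.79 and 4.56 TPM in the other 4, which were both K-NAA plates at CT13 (4.56 and 4.45 TPM) and replicate 2 of mock at CT13 (3.88 TPM) and at CT15 (3.79 TPM). Replicate 1 of mock held 0.636 TPM at CT13 and 0.631 TPM at CT15. The fitted range in mock was 0.92 with a peak at CT14.4 (adjusted p = 0.221 from limma). In K-NAA it was 1.01 with a peak at CT13.9 (adjusted p = 0.590 from limma). The mock call was lost in 11 of 38 fits that left out a library, time point or replicate, among them those without mock CT3 replicate 2 (adjusted p = 0.307), CT13 replicate 2 (0.339) or CT15 replicate 2 (0.367), over a range of 0.173 to 0.716 in its alternatives by limma. *spe-47* went the same way as the *msp* sum in 12 of 24 pairs.

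*ssp-35* was listed at 0 in 24 libraries, with a highest value of 2.30 TPM in K-NAA and 4.37 TPM in mock. In mock the highest library was CT1 replicate 1, which also had the highest *msp* sum. The fitted range in mock was 1.57 with a peak at CT7.72 (adjusted p = 0.259 from limma). This call disappeared in 20 of 38 such fits, among them those without mock CT5 replicate 1, CT21 replicate 1, CT23 replicate 1 or either mock plate of CT7, CT9, CT11 or CT19, with an adjusted p up to 0.931 over its alternatives by limma. No sperm gene was called for a difference in rhythm between K-NAA and mock (0 of 58 by limma, and 0 at an unadjusted p under 0.05), against 0.00724% of all genes. The smallest p was that of *spe-4* (adjusted p = 0.9999 from limma).

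Linear trends over the day were not called in any sperm gene. In K-NAA 0 of 58 passed at an adjusted p under 0.05 by limma (5 at an unadjusted p under 0.05), against 1.89% of all genes. The smallest p was that of *ssp-37*, with a slope of -0.018 per h on the log2 scale (SE 0.0063, adjusted p = 0.175 from limma). In mock 0 of 58 passed (2 at an unadjusted p under 0.05), against 8.99% of all genes, with the smallest p for *ssp-35* at -0.072 per h (SE 0.028, adjusted p = 0.106 from limma). That gene was called when CT3 (adjusted p = 0.0121), mock CT3 replicate 1 (0.0497) or mock CT3 replicate 2 (0.0430) was left out, over a range of 0.0121 to 0.716 in its alternatives by limma. The slopes of K-NAA and mock differed in 0 of 58 genes by limma (4 at an unadjusted p under 0.05), against 0.159% of all genes. *nspd-7* was nearest, with a difference of 0.073 per h (SE 0.028, adjusted p = 0.344 from limma).

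Further genes were taken from a list of names outside the rule, drawn up for sperm formation. Not all of them are sperm genes, as *rnp-8* acts in the oocyte programme and its level is no measure of sperm formation. Of 32 listed, 27 were in the tables and 19 were tested, of which 1 was higher and 4 were lower in K-NAA, against 9.48% higher and 19.8% lower over all genes, so these counts do not set the list apart. Those of highest mean were *rnp-8* (103.2 TPM on average), *zipt-7.1* (67.0 TPM), a zinc transporter gene needed for sperm activation, *cpb-1* (42.9 TPM), an RNA-binding protein gene needed for spermatocyte meiosis, and *fog-1* (22.7 TPM), needed for the sperm fate. *zipt-7.1* had medians of 59.5 TPM in K-NAA and 71.0 TPM in mock, and a log2 fold change of -0.30 (SE 0.039, adjusted p = 1.87e-07 from limma). *elt-1* was higher in K-NAA (0.19, SE 0.062, adjusted p = 0.0166 from limma), and *fog-3*, a gene needed for germ cells to become sperm, was lower (-0.34, SE 0.124, adjusted p = 0.0346 from limma). The chromatin genes *spch-1* and *spch-3* instead went with the *msp* sum, in 20 and 21 of 24 pairs. Late sperm genes such as *peel-1*, *comp-1* and *snf-10* averaged 0.0245 to 0.0417 TPM. The 12 germline genes of mitosis and meiosis summed to 1262–1438 TPM in K-NAA and 1165–1513 TPM in mock, and went with the *msp* sum in 12 of 24 pairs. The embryo genes went with it in 12 of 24 pairs and 8 of the 10 split pairs, and the somatic gonad genes in 12 of 24 and 5 of 10.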

How the data were processed

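Reads of 48 whole-worm libraries were quantified by the authors with Salmon on WormBase transcripts. The deposited TPM values have the same total in each library and keep no depth. The build ce10 is named in the submitters' processing notes. The authors' rhythm statistics in the same tables (p-values, q-values, periods, lags and amplitudes of BioCycle) were not used. Log2(TPM + 0.5) was fitted with limma 3.58.1 in R 4.3.3 for 13813 genes that averaged 0.25 TPM or more, with Benjamini-Hochberg adjustment over all of them: level with time point as a factor (threshold 0.05), a 24 h cosine and sine in each condition and their difference (threshold 0.30, with 0.05 beside it), and linear slopes and their difference (0.05). Sums and spreads were computed in Python 3.11.15. The fits were tested on simulated data. Replicates are culture plates. The p-values measure the spread between plates together with departures of the time points from the fitted model.

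The members and gene lists were chosen with earlier results of these data known. Named were the *spe* genes (some are not reported here), *gsp-3* and *gsp-4*, the 3 *msp*, *nspd* and *ssp* genes of highest mean, in each comparison up to 5 called genes of smallest p or the 1 of smallest p where none was called, the 10 genes most like the summed level and up to 4 genes of highest mean per list; others were named after their values were seen. Alternatives were other pseudocounts, filters, scalings, periods and thresholds, a drift term, no time point term, a replicate block, and fits leaving out every replicate, time point or library in turn. Leaving out the 2 libraries of highest *msp* sum was added after the data were seen. Positions are from the Ensembl annotation of WBcel235.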

Additional observations from a re-analysis of the deposited data

How the results depend on the processing

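The count of sperm genes called for level (4) was 2 without replicate 1 and 3 without replicate 2, and 2 to 5 in all fits with a replicate, time point or library left out. It was 6 after median ratio rescaling and 3 without the 2 libraries of highest *msp* sum. The mock rhythm count (2) was 1 with a pseudocount of 0.1 or a mean of at least 1 TPM, 0 with no filter on low values, a period of 20 h, a linear drift or an adjusted p under 0.05, 0 without either replicate, and 0 to 5 in all fits with something left out, the 5 without mock CT5 replicate 2. It was 3 without the 2 libraries of highest *msp* sum. Over all genes the mock rhythm calls also changed, to 131 at a period of 20 h, 2 with a linear drift and 1294 with no filter, against 1611. The mock trend count (0) was 0 to 1 in such fits. The cause of these changes was not tested. The median summed TPM was 256.3 over all 81 genes, 68.1 for the *msp* genes alone, 191.7 without them and 255.2 after median ratio rescaling. *spe-39*, not called for level (log2 fold change 0.07, adjusted p = 0.127 from limma), was called at 0.10 after median ratio rescaling, 0.11 after quantile normalization, 0.07 with a replicate block (adjusted p = 0.0367 from limma) and 0.14 without replicate 2, over a range of 0.000312 to 0.918 in its alternatives. No called value reversed. Plates of the same replicate number did not deviate together in K-NAA and mock. The correlation between their plate differences ran from -0.066 to 0.185 over the 12 time points. It does not show whether replicates 1 and 2 differ within a condition. In mock the *spe* sum was higher in replicate 2 at most time points. Over all genes the replicate block raised the level calls from 4050 to 4470 and the mock rhythm calls from 1611 to 2008. Among the sperm genes the counts with this block were 5 for level, 3 for mock rhythm and 0 for the others. The files hold no counts, so counting error behind listed zeros is unknown.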
